A study of Homo sapiens with 6 samples.

Results

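Transcripts of p53 target genes outside the apoptosis core were followed in colorectal cancer stem cells in which PSCA was targeted by siRNA. The genes were taken by name from a list of 42 p53 regulators and targets that act in cell cycle arrest, DNA repair, metabolism and signaling. Of these, 41 had a row in the expression table of 58735 genes, 39 reached the mean expression needed for testing, SPATA18 and EDA2R did not, and no row carried the name KITLG-AS1, which was not analysed here. The cells were HCT116SCs, CD44+CD326+ cells sorted from the colorectal carcinoma line HCT116 and grown as tumor spheres in serum-free medium with EGF and bFGF. The NC group (n = 3 libraries, genotype WT in the labels) received negative control siRNA, and the siPSCA group (n = 3 libraries, labelled PSCA knockdown) received PSCA siRNA, both with the same liposomal reagent and both harvested 48 h later. Of the 3 siRNA sequences given for PSCA, the one used for sequencing is not named, and the titles of siPSCA 2 and siPSCA 3 carry other numbers after HCT although their cell line label is HCT116. All cells come from 1 line, and nothing states that the libraries are separate cultures, so the p-values measure the spread between these libraries, which may be technical.

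The transcription factor p53 is held at a low level in unstressed cells by MDM2, a ubiquitin ligase that marks it for degradation, and by the related protein MDM4, which binds p53 and blocks its activity. After DNA damage or other stress, p53 accumulates and binds response elements made of a pair of decamers, from which it switches on genes for arrest (such as CDKN1A, encoding p21), repair and survival or death, among them MDM2 itself.

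Promoter sequences of RefSeq (build GRCh38.p14, from 250 bases before to 50 after a transcription start) were at hand for 33 of the 41 genes, and they were searched for the p53 decamer by its consensus, which reads the same on both strands. The consensus decamer occurred in 6 of the 49 windows of these genes (12.2%), each of another gene, and in 6.63% of all 35116 windows. A complete element, in which a pair of decamers is separated by at most 13 bases, was found in DDB2 and in 0.0285% of all windows. These 30-base stretches are shown because they are the only places in the windows where the letters of the motif occur, with the decamers in capitals:
DDB2: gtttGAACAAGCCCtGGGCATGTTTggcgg
AEN: agtcggagccGGGCTTGCCCgggcatgtgg
FDXR: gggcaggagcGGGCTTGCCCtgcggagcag
RPS27L: ggcctagagcAGACAAGCCCgccccgccgc
SESN1: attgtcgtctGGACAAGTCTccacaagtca
PLK2: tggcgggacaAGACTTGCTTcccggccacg
The DDB2 stretch lies on the plus strand at chr11:47214975-47215004, and its element runs from base 6 to base 26 after the start. The AEN stretch is also on the plus strand, at chr15:88621296-88621325. The other 4 lie on the minus strand, FDXR at chr17:74872986-74873015, RPS27L at chr15:63157517-63157546, SESN1 at chr6:109009018-109009047 and PLK2 at chr5:58460199-58460228. A match is a description of the letters and not evidence of binding. Sequence outside these windows was not searched, and decamers that depart from the consensus were not counted. A gene without a match here may therefore still hold an element. The genes ASCC3, CMBL, GADD45A, PHLDA3, RRM2B, TNFRSF10C, TNFRSF10D and TP53INP1 had no window.

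The table gives FPKM values, that is reads divided by gene length and a library total, and 16099716 to 17302219 reads lay on genes in each library. A gene was tested where its mean FPKM over the 6 libraries was at least 1, by the linear model of limma on log2(FPKM + 1) with 2-sided p-values adjusted over 13796 genes. Fold changes below are on that log2 scale and are written as siPSCA over NC. Reads on PSCA were 4, 12 and 15 in NC and 9, 9 and 7 in siPSCA, so they do not tell the groups apart (log2 fold change -0.07, adjusted p = 0.728 in a fit over all genes with a read). The paper reports less PSCA protein in HCT116SCs by Western blot with each of its PSCA siRNAs. These few reads do not measure protein. NC 3 stood apart from NC 1 and NC 2 along a gradient of gene GC content (Spearman correlation over genes -0.56), and the fold changes of siPSCA over NC followed GC content as well (0.66 across 13792 genes, which are not independent replicates). Results are therefore also given without NC 3, or after GC detrending, in which each library was freed of a smooth trend on gene GC content and gene length. SE is the standard error throughout. The 8 epithelial and sorting markers summed to an FPKM of 807 to 868 in NC and 861 to 890 in siPSCA. Single markers moved: the sorting marker CD44 was lower in siPSCA (mean FPKM 82.6 in NC and 60.7 in siPSCA, log2 fold change -0.44, adjusted p = 0.00193, -0.29 after GC detrending), as was CDH1 (-0.60), whereas KRT8, KRT19 and CDX2 were higher (0.22, 0.25 and 0.70). After GC detrending KRT8 and KRT19 had -0.02 and -0.27 and did not pass. KRT18 did not pass as deposited (-0.14, adjusted p = 0.165) and was called lower after GC detrending (-0.44, adjusted p = 0.0224). VIL1 had 1, 2 and 0 reads in NC and 3, 5 and 1 in siPSCA, too few for testing. The other sorting marker, EPCAM (CD326), did not pass (-0.16, adjusted p = 0.199). The 13 markers of fibroblasts, endothelium and leukocytes summed to 3.87 to 6.31 in NC and 6.69 to 7.07 in siPSCA, and 2 to 5 of them had no read in a given library. Nearly all of that sum was COL1A1 (3.35 to 5.62 in NC and 5.95 to 6.51 in siPSCA, adjusted p = 0.111), the only one of the 13 that reached the minimum for testing. The part of these markers in the results below was not tested.

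Among the 39 genes tested, 13 rose and 8 fell in siPSCA past an adjusted p of 0.05, while 18 did not pass. The 21 calls make 53.8% of the 39, and 50.7% of all tested genes were called. Over all tested genes 26.6% were higher and 24.2% lower by the same rule, and the p53 targets stood at 33.3% and 20.5%, so the count of calls alone was near the background. With a log2 fold change of at least 0.5 asked for in addition, 11 of the 39 (28.2%) were higher, against 14.1% of all tested genes, and 5 (12.8%) were lower, against 9.71%. The genes were chosen with earlier results of these data known, and these shares were not tested against each other. The median log2 fold change of the 39 was 0.07 and that of all tested genes 0.01. In RNA from whole cultures, fewer cells of a kind and less RNA per cell cannot be told apart. Without NC 3 all 13 risers and 8 fallers were called again and GDF15 and PERP joined the risers, while 29.1% of all tested genes were higher and 24.7% lower (53.8% in all). The number of fallers was 5 without NC 2 and 5 without siPSCA 1, siPSCA 2 or siPSCA 3. Risers numbered 13 without NC 2, and 10, 10 and 11 without siPSCA 1, siPSCA 2 and siPSCA 3. Calls over all tested genes varied as well, from 4627 to 7425 in the fits without 1 library, against 7001 with all libraries. The calls lost in some of these fits were those of GADD45B, FBXW7, ASCC3, FDXR, TP53I11 and RPS27L.

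**Figure D1:**
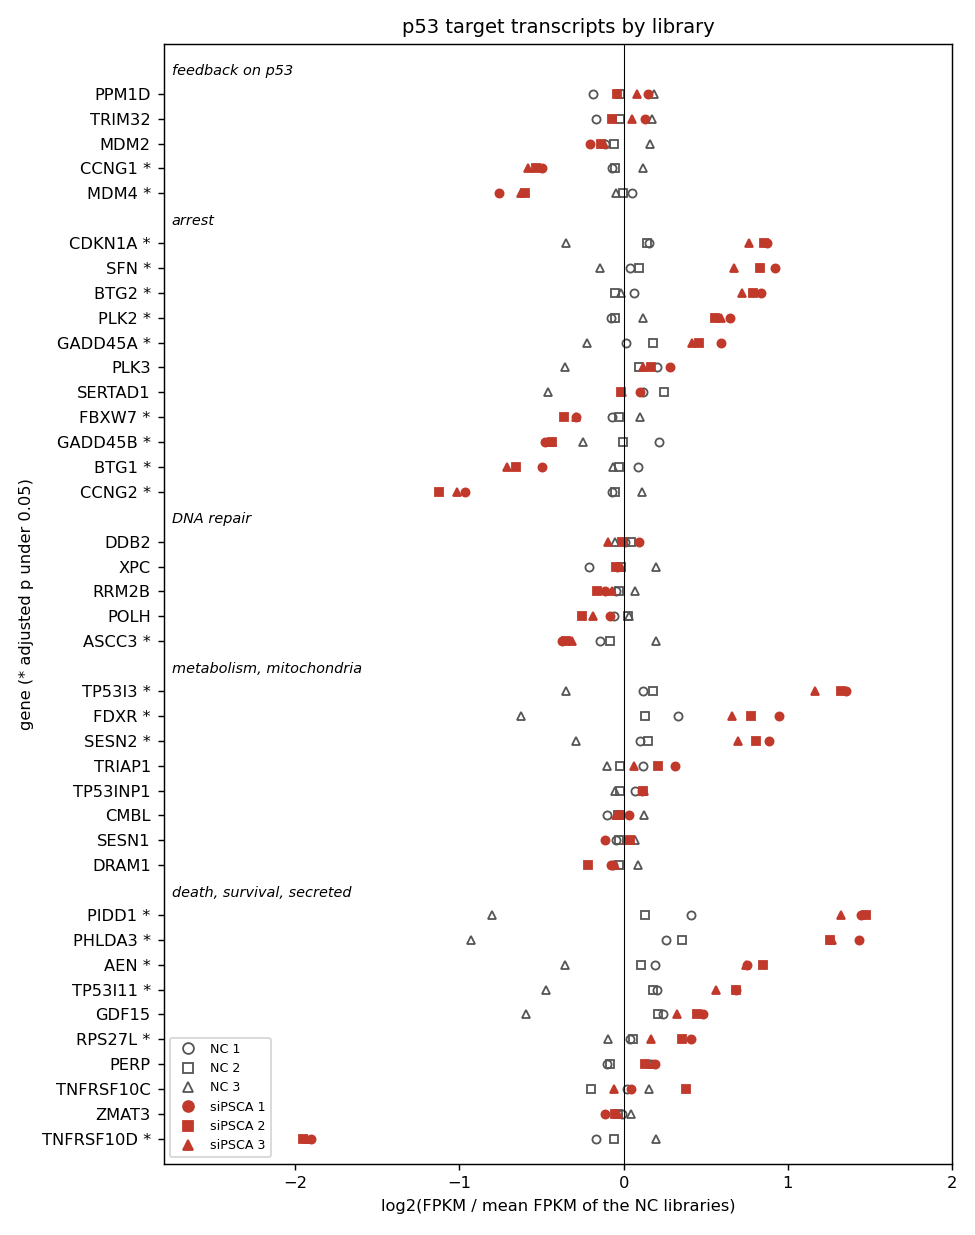
Each row is 1 of the 39 tested p53 targets, grouped by role, and each point is 1 library, drawn as log2 of its FPKM over the mean FPKM of the NC libraries (open grey symbols NC, filled red siPSCA, an asterisk for an adjusted p under 0.05). In all 21 called genes the siPSCA points lie on one side of all NC points, from TNFRSF10D at the far left to PIDD1 and PHLDA3 at the right, where NC 3 (triangle) is the lowest NC library. The call favours genes with separate groups, so this adds no support. Groups were separate in 26 of the 39 genes, and the share over all tested genes was not counted.

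None of the 5 genes that act back on p53 rose, and 2 fell (40%), where 26.6% and 24.2% of all tested genes rose or fell. MDM4 and CCNG1 fell, and MDM2, PPM1D and TRIM32 did not pass the test. MDM2 (chromosome 12, 68808176 to 68850686) had FPKM values of 17.6, 18.3 and 21.3 in NC and 16.5, 17.3 and 17.5 in siPSCA. All siPSCA values lay below the NC values by a small margin, and the log2 fold change was -0.14 (SE 0.08, adjusted p = 0.176). The sign of MDM2 depended on the GC trend, as its log2 fold change was 0.17 and past the threshold after the trend was removed (adjusted p = 0.0284). MDM2 was not called when a term for the replicate number was added to that fit. MDM4 (chromosome 1, 204516379 to 204558120) had 13.8, 13.3 and 12.9 in NC against 7.87, 8.79 and 8.66 in siPSCA, well separated groups with little spread in either. Its log2 fold change was -0.60 (SE 0.06, adjusted p = 0.00116), -0.62 without NC 3 and -0.33 after GC detrending, where it still passed. CCNG1, a cyclin that recruits a phosphatase to MDM2, fell from 69.9, 70.7 and 79.8 to 52.0, 50.8 and 49.1. The CCNG1 groups did not overlap either (log2 fold change -0.52, adjusted p = 0.00189, -0.27 after GC detrending). PPM1D, a phosphatase that removes activating phosphates from p53, and TRIM32, a ubiquitin ligase, had log2 fold changes of 0.07 and 0.04 with overlapping groups.

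Genes of cell cycle arrest moved in both directions, with 5 risers (45.5%) and 4 fallers (36.4%) among 11, where 26.6% and 24.2% of all tested genes rose or fell. CDKN1A (chromosome 6, 36676460 to 36687339), whose protein p21 inhibits cyclin-dependent kinases, had FPKM values of 111, 110 and 78.0 in NC and 182, 180 and 169 in siPSCA. NC 3 was lower than the other NC libraries, and every siPSCA library was above all of them. Group means were 99.5 ± 18.6 in NC and 177 ± 6.90 in siPSCA (SD, n = 3 each), and the log2 fold change was 0.84 (SE 0.14, adjusted p = 0.00457), with 0.68 without NC 3 and 0.45 after GC detrending, both past the threshold. SFN, encoding 14-3-3 sigma, which holds mitotic regulators in the cytoplasm, had 119, 123 and 105 in NC against 219, 206 and 184. SFN and CDKN1A were the most abundant of the 39 genes by FPKM, at or above 98.7% of tested genes. The SFN log2 fold change was 0.81 (adjusted p = 0.00150), or 0.31 after GC detrending. BTG2, an antiproliferative partner of the deadenylase complex, had 20.3, 18.7 and 19.2 against 34.7, 33.5 and 31.95. NC 3 lay between the other NC libraries here, and the log2 fold change of 0.75 (SE 0.05, adjusted p = 0.000595) was 0.74 without it and 0.64 after GC detrending. PLK2, a polo-like kinase, rose from 13.6, 13.8 and 15.6 to 22.4, 21.1 and 21.6. Its log2 fold change of 0.57 (adjusted p = 0.00164) was 0.62 without NC 3 and 0.57 after GC detrending, so its value moved little with either step. GADD45A, a small stress sensor of arrest and repair, had 27.0, 30.4 and 23.0 in NC and 40.4, 36.9 and 35.7 in siPSCA, groups that did not overlap (log2 fold change 0.48, adjusted p = 0.0118, 0.37 after GC detrending).

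The arrest genes that fell were CCNG2, BTG1, GADD45B and FBXW7. CCNG2, an unconventional cyclin linked to growth arrest, went from 13.6, 13.8 and 15.4 to 7.33, 6.55 and 7.09. This log2 fold change of -0.94 (SE 0.07, adjusted p = 0.000598) was the second largest fall among the p53 targets, and it was -0.88 without NC 3 and -0.65 after GC detrending. BTG1, a close relative of BTG2, had 12.2, 11.3 and 10.99 in NC and 8.15, 7.28 and 7.01 in siPSCA. The BTG1 groups were separate (log2 fold change -0.56, adjusted p = 0.00214), and the value after GC detrending was -0.27, just past the threshold (adjusted p = 0.0491). GADD45B, a relative of GADD45A, stood at a log2 fold change of -0.35 (adjusted p = 0.0300), which passed in 1 of the 6 fits that left out a library, and which was -0.77 after GC detrending. FBXW7, which targets cyclin E for degradation, had -0.24 (adjusted p = 0.0246), passed in 2 of those 6 fits and had -0.10 after GC detrending, no longer past the threshold. PLK3 and SERTAD1 had log2 fold changes of 0.19 and 0.05 and overlapping groups.

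None of the 5 genes of DNA repair rose, and 1 fell (20%), where 26.6% and 24.2% of all tested genes rose or fell. DDB2 and XPC, which recognise damaged bases for nucleotide excision repair, had log2 fold changes of -0.00 and -0.02. DDB2, the gene with the complete decamer pair shown above, had 12.7, 12.9 and 12.1 in NC and 13.4, 12.5 and 11.8 in siPSCA. These values interleave, and both groups averaged 12.6 (SE of the log2 fold change 0.06, adjusted p = 0.981). POLH, a translesion polymerase, had -0.16 and RRM2B, a subunit of ribonucleotide reductase, -0.11, neither past the threshold. POLH passed under each of the other 3 scalings of the libraries, and RRM2B had 0.21 and passed after GC detrending. ASCC3, a helicase of alkylation repair, stood at a log2 fold change of -0.31 (adjusted p = 0.0303), which passed in 2 of the 6 fits that left out a library and was 0.05 after GC detrending. The exons of XPC share 23.8% of their bases with the opposite-strand gene AC093495.1, and whether counting used strand is not given in the sources used here.

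Among 8 tested genes of metabolism and mitochondria, 3 rose (37.5%), TP53I3, FDXR and SESN2, and none fell. Over all tested genes 26.6% rose and 24.2% fell. TP53I3, a quinone oxidoreductase, had FPKM values of 5.10, 5.32 and 3.69 in NC and 12.0, 11.8 and 10.5 in siPSCA. Its mean was 2.43 times higher in siPSCA, for a log2 fold change of 1.14 (SE 0.12, adjusted p = 0.00147), 1.00 without NC 3 and 0.76 after GC detrending. SESN2, which restrains mTORC1 when leucine is short, rose from 8.91, 9.21 and 6.81 to 15.4, 14.5 and 13.5. The log2 fold change of SESN2 was 0.74 (adjusted p = 0.00376) and 0.29 after GC detrending, and both passed. FDXR, a reductase of the mitochondrial electron supply to cytochromes P450, had 20.7, 18.0 and 10.7 against 31.7, 28.2 and 26.0. Here NC 3 lay far below its group, and the log2 fold change of 0.81 (SE 0.23, adjusted p = 0.0277) was 0.54 without NC 3. It did not pass without any single siPSCA library (0.73, 0.81 and 0.87) or after GC detrending (0.26). SESN1, TP53INP1, DRAM1, TRIAP1 and CMBL had log2 fold changes of -0.01, 0.11, -0.10, 0.19 and -0.01. Of these, TP53INP1 and TRIAP1 passed with 0.40 and 0.38 after GC detrending.

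Of 10 tested genes of death, survival and secreted signals, 5 rose (50%) and 1 fell (10%), where 26.6% and 24.2% of all tested genes rose or fell. TNFRSF10D, a decoy receptor that binds TRAIL without passing on a death signal, had 60.4, 65.2 and 77.9 in NC and 18.1, 17.5 and 17.8 in siPSCA. The siPSCA libraries were nearly equal and lay at 0.263 of the NC mean, a log2 fold change of -1.86 (SE 0.09, adjusted p = 0.000215). Only 14 of the 13796 tested genes had a lower log2 fold change. TNFRSF10D changed little with the processing, at -1.76 without NC 3 and -1.89 after GC detrending. Its neighbour TNFRSF10C, another decoy receptor, had 2.61, 2.24 and 2.86 against 2.66, 3.34 and 2.47, overlapping groups at a low level (log2 fold change 0.10, adjusted p = 0.511).

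PIDD1, the scaffold of a complex that activates caspase-2, had 5.38, 4.44 and 2.32 in NC and 11.02, 11.3 and 10.1 in siPSCA. PHLDA3, an inhibitor of AKT, had 5.63, 6.04 and 2.48 against 12.7, 11.3 and 11.4. In both genes NC 3 was well below the other NC libraries, and all siPSCA libraries lay above every NC library. The log2 fold changes were 1.28 for PIDD1 (SE 0.23, adjusted p = 0.00627) and 1.23 for PHLDA3 (SE 0.27, adjusted p = 0.0113). Without NC 3 they were 1.00 and 0.90, and after GC detrending 0.59 and 0.77, past the threshold in each case. The exons of PIDD1 share 1.82% of their bases with the opposite-strand gene RPLP2, which had a mean FPKM of 156 in NC and 152 in siPSCA. As the use of strand is not given, reads of RPLP2 may be part of the PIDD1 values, which was not tested. AEN, a nuclease of apoptotic cells, rose from 10.9, 10.3 and 7.46 to 16.0, 17.2 and 16.0. Its log2 fold change was 0.74 (SE 0.13, adjusted p = 0.00567) and stayed at 0.67 after GC detrending. TP53I11 had 8.09, 7.94 and 5.07 in NC and 11.3, 11.3 and 10.4 in siPSCA, with separate groups. Its log2 fold change of 0.60 (adjusted p = 0.0231) did not pass without any single siPSCA library (0.58, 0.58 and 0.64) or after GC detrending (0.22). RPS27L, a paralog of ribosomal protein S27, had 0.27 (adjusted p = 0.0266), passed in 4 of the 6 fits that left out a library and had 0.49 after GC detrending.

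The remaining genes of this group did not pass the test. GDF15, a secreted stress cytokine, had 78.2, 76.4 and 43.8 in NC and 92.3, 90.0 and 82.9 in siPSCA. NC 3 lay far below the other NC libraries, by more than the difference between the group means, and its log2 fold change of 0.46 (adjusted p = 0.127) was 0.19 and past the threshold without NC 3. The sign of GDF15 turned with GC detrending (-0.10, not past the threshold), and with NC 3 left out as well it was called lower (-0.22). PERP, a desmosomal protein, had 0.17 and ZMAT3, an RNA-binding protein, -0.06, and both passed with positive values (0.38 and 0.29) after GC detrending. SPATA18, a regulator of mitochondrial quality, lay far below the minimum, with 7, 8 and 7 reads in NC and 16, 12 and 14 in siPSCA. Every siPSCA library had more SPATA18 reads than every NC library, and the ratio of the summed reads, scaled by the reads of the libraries, was 1.89 (exact binomial 95% confidence interval 1.10 to 3.33, counting error only). In the model over all genes with a read SPATA18 did not pass (adjusted p = 0.142). EDA2R had 0 reads in NC and 1, 0 and 1 in siPSCA, under the floor of 3 reads, so no difference was detectable at this depth.

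Base composition moved with these results. Median GC content was 58.4% among the p53 targets that rose and 41.6% among the fallers, against 57.5% and 41.2% for all tested genes that rose or fell. NC 3 was the lowest NC library in 11 of the 13 risers and the highest in 5 of the 8 fallers. NC 3 departed along GC content over all tested genes (Spearman correlation -0.56), and its place was not counted among the other called genes. These counts are therefore not shown to be particular to the p53 targets. After GC detrending 25 of the 39 genes were called, where 39.6% of all tested genes were. Of these 25, 17 were higher (43.6% of the 39, against 21.2% of all tested genes) and 8 lower (20.5%, against 18.4%). Of the 13 risers 11 remained called, and of the 8 fallers 6. MDM2, RRM2B, TP53INP1, TRIAP1, PERP and ZMAT3 were then called higher, and PLK3 and POLH lower. With NC 3 left out as well, 19 were higher and 10 lower, against 23.7% and 19.2% of all tested genes (42.9% in both directions). Whether the trend arose in the libraries or in the cells cannot be told apart with these 6 libraries.

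**Figure D2:**
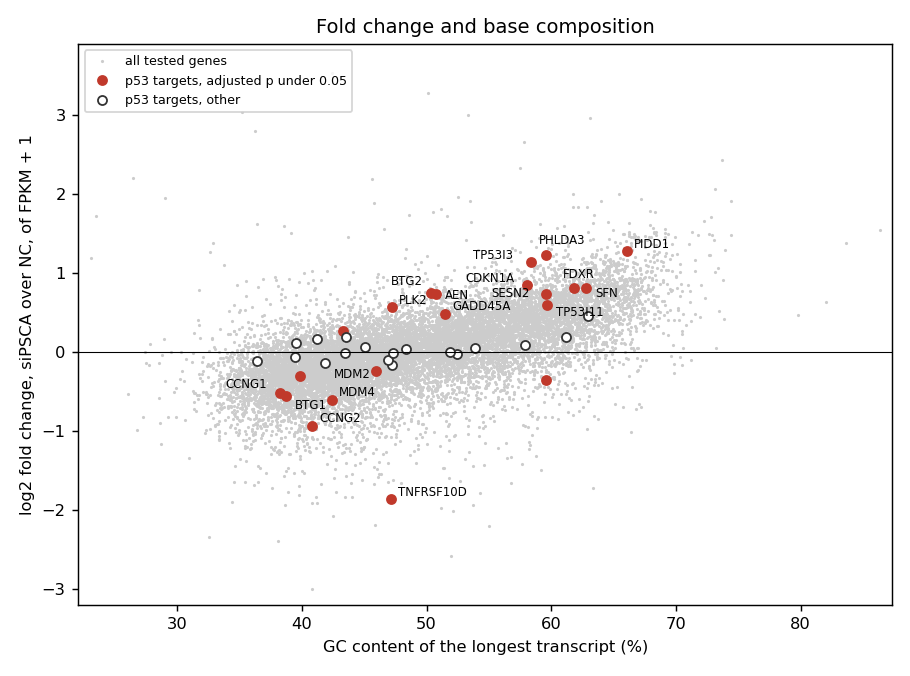
The x axis is the GC content of each gene's longest transcript in percent and the y axis the log2 fold change of FPKM + 1, siPSCA over NC, with grey dots for all tested genes, filled red circles for called p53 targets and open circles for the others. CDKN1A, SFN, FDXR and TP53I11 lie along the rising grey cloud, whereas TNFRSF10D (-1.86) lies far below it and PLK2, BTG2 and AEN lie at its upper edge near 50% GC.

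Several of the genes are pairs of related proteins, and their balance was compared within each library as the log2 ratio of FPKM + 1. In 6 of 7 pairs the ratios of the groups did not overlap, each with an exact permutation p = 0.1 (2-sided), the smallest that 3 libraries against 3 can give (0.117 after adjustment over the 7 pairs), so no pair could pass. Every pair holds a gene called above, so the ratios partly restate those calls. How often the ratios of other gene pairs separate was not counted. The ratio of BTG1 to BTG2 was -0.69, -0.69 and -0.75 in NC and -1.96, -2.06 and -2.04 in siPSCA. The balance of this pair thus differed by -1.31, far beyond its spread within groups. GADD45A over GADD45B was 2.16, 2.50 and 2.31 in NC against 3.28, 3.12 and 3.07, a difference of 0.83. MDM2 over MDM4 was 0.33, 0.43 and 0.68 against 0.98, 0.90 and 0.94, a difference of 0.46, and of this pair only MDM4 had passed the test. TNFRSF10C over TNFRSF10D differed by 1.96, CCNG1 over CCNG2 by 0.41, and SESN1 over SESN2 by -0.75. For PLK2 over PLK3 the groups overlapped (difference 0.38, exact permutation p = 0.3). After GC detrending all 7 differences kept their direction, with SESN1 over SESN2 at -0.15, PLK2 over PLK3 at 0.90, MDM2 over MDM4 at 0.50 and BTG1 over BTG2 at -0.91.

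**Figure D3:**
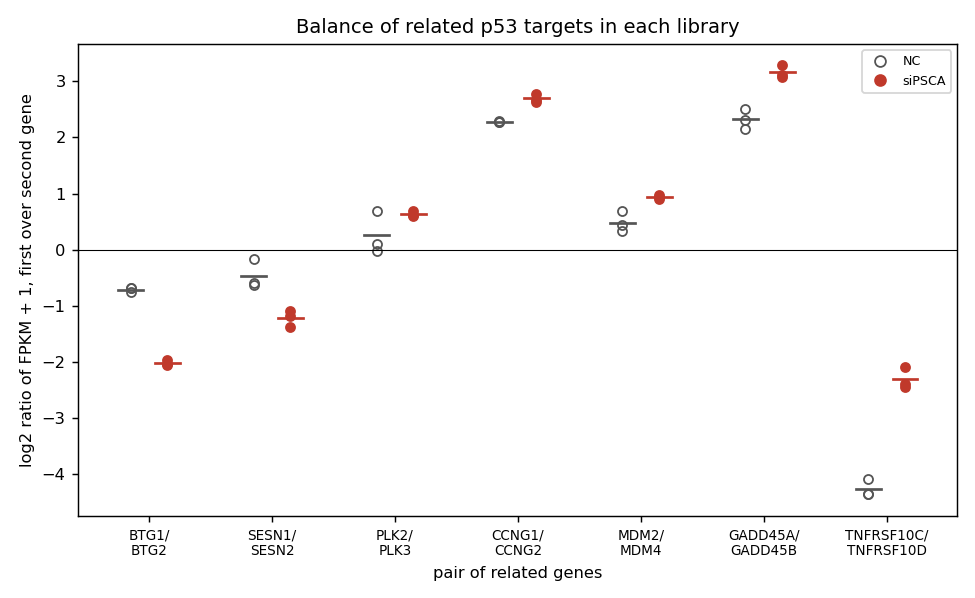
For each pair of related genes on the x axis, points give the log2 ratio of FPKM + 1 of the first over the second gene in each NC (open grey) and siPSCA (filled red) library, with a bar at the group mean. The ratio is lower in siPSCA for BTG1/BTG2 and SESN1/SESN2 and higher for CCNG1/CCNG2, MDM2/MDM4, GADD45A/GADD45B and TNFRSF10C/TNFRSF10D, with overlap for PLK2/PLK3.

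The other genes of the pathway were taken from hand-written lists. Of the 35 tested genes upstream of p53, 6 rose (17.1%, against 26.6% of all tested genes) and 12 fell (34.3%, against 24.2%). After GC detrending 8 were higher and 7 lower (22.9% and 20%, against 21.2% and 18.4%). TP73, a p53 relative, and CDKN2A, which encodes the MDM2 inhibitor ARF, had the largest rises past the threshold (0.64 and 0.55). The largest falls past the threshold were those of RPL23, a ribosomal protein that binds MDM2, and ATM, a kinase of the damage response (-0.65 and -0.61). CDKN2A and ATM had 0.04 and -0.14 after GC detrending and no longer passed, and CDKN2A passed in 2 of the 6 fits that left out a library.

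Among 16 tested p53 targets of the apoptosis core, 8 rose (50%, against 26.6% of all tested genes) and 1 fell (6.25%, against 24.2%). The largest rises were those of BBC3, encoding PUMA, with 5.88, 5.63 and 2.70 in NC and 12.3, 13.1 and 10.7 in siPSCA (log2 fold change 1.23), and of BAX, with 15.1, 14.9 and 8.35 against 28.9, 28.1 and 25.2 (1.08). Both kept their call after GC detrending, at 0.31 and 0.67. The 1 faller was APAF1 (-0.23), which had 0.04 after GC detrending. With that step 11 of the 16 were called higher and 2 lower (68.8% and 12.5%, against 21.2% and 18.4%). Of 40 further p53 targets tested, 20 rose (50%, against 26.6%) and 3 fell (7.5%, against 24.2%). They were led by SAC3D1 (1.51) and EPN3 (1.18) upwards and PRKAB2 (-0.29) and TMEM68 (-0.27) downwards. TMEM68 passed in 2 of the 6 fits that left out a library. After GC detrending 13 of the 40 were higher (32.5%, against 21.2%) and 4 lower (10%, against 18.4%). SAC3D1 and EPN3 were then both at 0.68, and PRKAB2 and TMEM68 no longer passed (-0.05 and 0.10).

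Genes that p53 represses through p21 and the DREAM complex, mostly of mitosis and DNA replication, were mixed. Of 43, 15 were higher (34.9%, against 26.6% of all tested genes) and 10 lower (23.3%, against 24.2%), with a median log2 fold change of 0.01. After GC detrending 16 were higher and 5 lower (37.2% and 11.6%, against 21.2% and 18.4% of all tested genes), with a median of 0.15. AURKB (0.87) and E2F1 (0.81) rose most, and the kinetochore genes CENPE (-1.12) and CENPF (-1.09) fell most. All of these 4 passed after GC detrending, with 0.60, 0.25, -0.75 and -0.75. The lists were chosen with earlier results known, and their shares were not tested against the background.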

How the data were processed

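RNA of HCT116SCs was sequenced in 6 libraries, 3 NC and 3 siPSCA, grouped by their labels. The authors deposited 1 table of FPKM values with gene length, position and biotype, on GRCh38 per the labels. The gene positions of all 58735 rows were those of GENCODE release 29. The aligner, the counting program, the use of strand and the handling of reads that match several genes are not given in the sources used here. In each library, 100% of the products of FPKM and gene length were whole multiples of one step (within 0.01), which gave back the reads, 16099716 to 17302219 per library. Intervals and floors cover counting error only.

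Values were analysed with R 4.3.3, limma 3.58.1 (lmFit, eBayes with a trend, group as the only term), Python 3.11.15, scipy 1.17.1 and matplotlib 3.10.9. The minimum mean FPKM was 1 and the pseudocount 1. Adjustment followed Benjamini and Hochberg. The methods of the paper do not state how DEGs were called. In simulated data for this comparison, 163 of 200 genes with a log2 change of 1 and 83 of 200 with 0.5 were recovered among 13873 and 13919 genes, with 9 and 3 false calls. The simulation changed only these 200 genes, gave every gene the same spread and held no GC trend. In the data 7001 genes were called and fold changes followed GC content, so these figures do not give the power or the false calls there.

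GC content was that of the longest transcript in GENCODE release 29. GC detrending fitted GC content and log gene length in each library with natural splines of 5 degrees of freedom. The members and all lists were chosen with earlier results of these data known. Every member is named, and per-library values are given for MDM2, MDM4, CDKN1A and GADD45A and for members with an adjusted p under 0.05 and a log2 fold change of at least 0.5 in size. DDB2, TNFRSF10C, GDF15, SPATA18 and EDA2R were given per-library values after these had been seen. Of each other list, the 2 largest rises and falls past the threshold are named. Some genes of those lists are not reported here and were left out of their counts.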

Additional observations from a re-analysis of the deposited data

How the results depend on the processing

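Calls on the p53 targets kept their direction under a pseudocount of 0.1, minimum FPKM values of 0.5 and 5, no minimum, TPM, trimmed-mean and median-of-ratios scaling, limma-voom on recovered reads, the replicate block and each fit without 1 library. GC detrending turned the sign of MDM2 (0.17), PLK3 (-0.33), RRM2B (0.21), ASCC3 (0.053) and ZMAT3 (0.29), called before or after it, and of TRIM32 (-0.02), SERTAD1 (-0.15), SESN1 (0.14), TNFRSF10C (-0.23) and GDF15 (-0.10), called in neither. With the replicate block added, PLK3, RRM2B, ASCC3 and ZMAT3 had the same values (ASCC3 0.053), and SFN, MDM2 and POLH no longer passed. With NC 3 left out instead, a step chosen after seeing the data, the first 5 values were 0.21, -0.35, 0.21, 0.11 and 0.27, and SERTAD1 (-0.31) and GDF15 (-0.22) were called lower. The cause was not tested. The number of lower p53 targets was 5 without a minimum FPKM (more genes tested) and 5 by an unadjusted p under 0.05 with a log2 fold change beyond 0.5. By that rule 3434 of all genes and 33 genes of the other p53 lists were called, against 7001 and 75, and 4643 of all genes were called with the replicate block and GC detrending. Without 1 library at a time, 4627 to 7425 genes were called in all, 15 to 23 p53 targets (10 to 15 higher, 5 to 8 lower) and 50 to 85 genes of the other lists. Same-numbered libraries did not deviate together in every pair (correlations across genes 0.10, 0.01 and 0.13), and NC 2 correlated best with siPSCA 1 (0.04), so the numbers were not taken as pairs. The replicate block gave 6725 calls in all and 22 among the p53 targets, with TRIAP1 added. The deposited values are FPKM, and of the methods for counts only limma-voom was run on the recovered reads. The alternatives with edgeR and DESeq2 were not run. With 3 libraries a group, 41.5% of simulated log2 changes of 0.5 were recovered. That simulation held no GC trend, so the share need not hold for these data.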
